A study of Cocos nucifera and Zingiber officinale with 11 samples.

Results

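Plants hold, beside the miRNA families they share with nearly all land plants, a second set of younger families. Many of these were described in 1 lineage, such as the legumes, the citrus trees, the nightshades (Solanaceae) or the rose family (Rosaceae). The members examined here are the listed miRNAs whose family number, the number after MIR in the name, belongs to 1 of 4 such lists, fixed by number and not by level. They were 33 of the 418 miRNAs measured in exosome-like nanoparticles of edible plants (EPDELNs), with 12 in the legume list, 5 in the citrus list, 10 in the Solanaceae list and 6 in the Rosaceae list. A place in a list does not make a family exclusive to that lineage. MIR-1511 of the legume list also has an apple reference here, and MIR-3627 of the Rosaceae list has a grapevine reference. Of the 50 families searched, 25 had a listed miRNA, namely 7 of 12 in the legume list, 5 of 9 in the citrus list, 7 of 19 in the Solanaceae list and 6 of 10 in the Rosaceae list. MIR-1514, MIR-1515, MIR-2086, MIR-2119 and MIR-5770 of the legume list had no listed miRNA. Nor had MIR-3948, MIR-3949, MIR-3950 and MIR-3953 of the citrus list, or MIR-7123, MIR-7126, MIR-7127 and MIR-7128 of the Rosaceae list. In the Solanaceae list the 12 families with no listed miRNA were MIR-4376, MIR-5303, MIR-6023, MIR-6024, MIR-6025, MIR-9470, MIR-9472, MIR-9473, MIR-9474, MIR-9475, MIR-9477 and MIR-9478.

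Small RNA was sequenced from nanoparticles of 11 plants, 1 library each. The legume libraries came from soybean and pea, the citrus libraries from grapefruit and orange, the Solanaceae library from tomato and the Rosaceae library from pear, and the other libraries came from blueberry, coconut, ginger, Hami melon and kiwifruit. The labels call the tissue fruit in every plant except ginger, where it is the rhizome, and 1 of the legume libraries carries both the names pea and Lima bean, which are both legumes, so the name pea is kept. Juice was ground out in buffer for soybean, pea, tomato, ginger and Hami melon, and squeezed by hand for grapefruit, orange, pear, blueberry and kiwifruit, while for coconut the method is not given in the sources used here. Levels are in RPM, reads scaled to a fixed total per library, as deposited. Each value was a whole multiple of what 1 read is worth in its library, within 0.01 of a read. The scaling totals recovered in this way ran over 236959 to 6518871 reads, and 4541 to 377989 reads lay on miRNAs. A miRNA listed at 0 may still have had reads, because the smallest listed value was 5 reads in 10 libraries and 7 reads in ginger, or 0.767 RPM in kiwifruit to 29.5 RPM in ginger. The summed level ran over 2939 RPM (coconut) to 533332 RPM (soybean), so shares of the summed level of a library are given beside RPM. All intervals are 95% and cover counting error only, and PCR copies of 1 molecule make them too narrow. With 1 library per plant, p-values measure the spread between plants.

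Lineage families of this kind often act on large gene families of plants. In legumes MIR-1509 is a 22 nt miRNA of the class that starts the production of secondary small RNAs from its target transcripts, and MIR-1508 acts on genes for pentatricopeptide repeat (PPR) proteins, which process RNA in organelles. MIR-7122 of Rosaceae acts on PPR genes and MIR-3954 of citrus starts secondary small RNAs, and the tomato families MIR-6022, MIR-6026 and MIR-6027 act on disease resistance genes. A code before each name gives the species of the reference, which is soybean for gma, sweet orange for csi, tomato for sly, apple for mdm and grapevine for vvi, and not the plant sequenced. The listed forms of members that the results return to are shown here 5′ to 3′, each named with a library that listed it. They are spelled as in the deposited table, with the seed (bases 2 to 8) in capitals.
gma-MIR-1508c, soybean: tAGAAAGGgaaatagcagttg
gma-MIR-1509a, soybean: tTAATCAAggaaatcacggtcg
gma-MIR-1509b, soybean: tTAATCAAggaaatcacggttg
gma-MIR-1511, soybean: aACCAGGCtctgatacc
gma-MIR-1511, pea: aACCAGGCtctgataccatga
gma-MIR-4996, soybean: tAGAAGCTccccatgttctca
gma-MIR-5671b, soybean: tACCCGAAtttgcttccatgat
csi-MIR-3952, orange: tGAAGGGCctttctagagcac
csi-MIR-3954, orange: tTGGACAGagaaatcacggtca
sly-MIR-1919a, tomato: aCGAGAGTcatctgtgacag
sly-MIR-1919c-5p, tomato: tGTCGCAGatgactttcgccc
sly-MIR-6022, tomato: tGGAAGGGagaatatccagg
sly-MIR-9471a-3p, tomato: tTGGCTGAgtgagcatcacgg
sly-MIR-9471b-3p, tomato: tTGGCTGAgtgagcatcact
mdm-MIR-7121e, pear: tCCTCTTGgtgatcgccctg
mdm-MIR-7125, pear: cGAACTTAttgcaactagctt
mdm-MIR-7122a, pear: tTATACAGagaaatcacggtcg
mdm-MIR-1511, pear: aCCTAGCTctgataccatgaa
Among the 33 reference sequences 31 seeds were distinct. The seed TAATCAA was shared by gma-MIR-1509a and gma-MIR-1509b, and TGGCTGA by sly-MIR-9471a-3p and sly-MIR-9471b-3p. Of the names outside the lists 1 shared a seed with a member, mdm-MIR-482d, whose seed ATGGAAG is that of gma-MIR-5671a. No seed was shared by members of different lists. The pairs gma-MIR-1509a and gma-MIR-1509b, gma-MIR-1508a and gma-MIR-1508c, and sly-MIR-9471a-3p and sly-MIR-9471b-3p are nearly the same sequence, and the authors assigned reads at up to 2 mismatches, so reads within these pairs may be split between names.

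**Figure D1:**
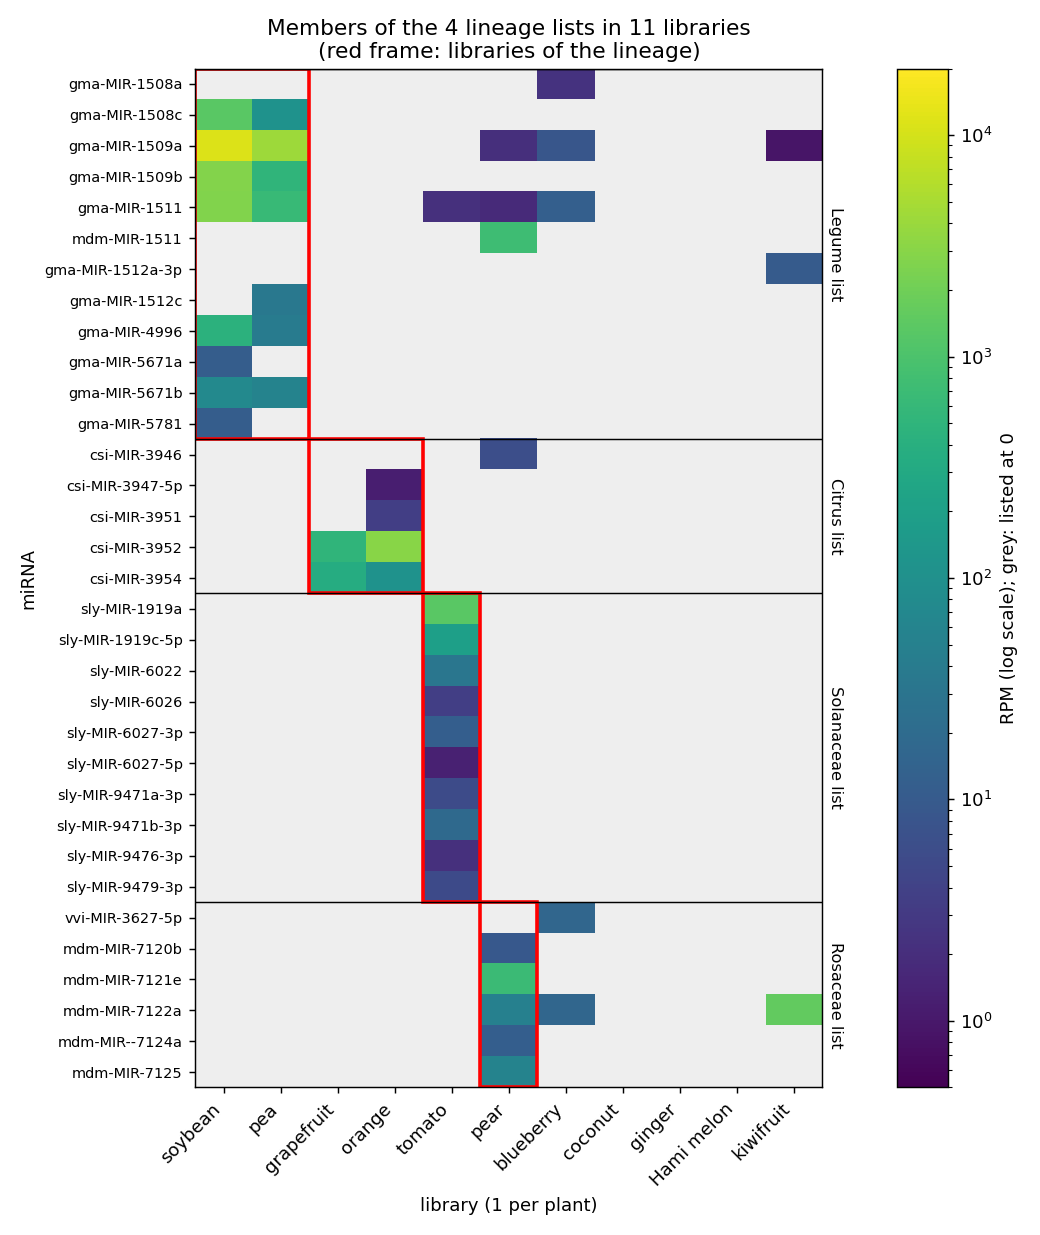
Level of each of the 33 members (rows, by list) in each of the 11 libraries (columns), coloured by RPM on a log scale, with grey where a miRNA was listed at 0 and red frames around the libraries of the lineage. The 36 listed values inside the frames reach 11516 RPM, and 13 listed values lie outside them, all in blueberry, kiwifruit, pear and tomato.

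Most members were listed only in plants of their own lineage. Over the 4 lists 25 of 33 members were listed only in a library of their lineage, 5 were listed only elsewhere (gma-MIR-1508a, mdm-MIR-1511, gma-MIR-1512a-3p, csi-MIR-3946 and vvi-MIR-3627-5p) and 3 were listed in both (gma-MIR-1509a, gma-MIR-1511 and mdm-MIR-7122a). Listing in few libraries was common, as only 189 of all 418 miRNAs were listed in at least 2. Of the 418, 58 were listed only in the legumes, 43 only in citrus, 50 only in tomato and 27 only in pear. As pairs of a member and a library, 36 lay in the lineage and 13 outside it. No member of any list was listed in coconut, ginger or Hami melon. Soybean, pea, grapefruit and orange listed no member of a foreign list, tomato listed 1, kiwifruit 3, pear 4 and blueberry 5.

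In the legumes the list was led by MIR-1509, the starter of secondary small RNAs. gma-MIR-1509a had 11516 RPM in soybean and 4212 RPM in pea, against 8.39 RPM in blueberry, 2.06 RPM in pear and 0.920 RPM in kiwifruit, and it was listed at 0 in coconut, ginger, grapefruit, Hami melon, orange and tomato. Both legume libraries lay above all 9 others, and the lower of them was 502-fold above the highest outside the legumes. On the log2(RPM + 1) scale the legume mean was 12.12 higher (SE 1.23, limma, Benjamini-Hochberg adjusted p = 7.24e-06 over 418 miRNAs). The read counts behind the values were 6062 in soybean and 1460 in pea, against 18 in blueberry, 7 in pear and 6 in kiwifruit. It took 2.16% of the summed level in soybean (95% Wilson interval 2.11–2.21) and 3.19% in pea (3.03–3.35), so pea was lower in RPM and higher in share.

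The copy gma-MIR-1509b had 2783 RPM in soybean and 516 RPM in pea and was listed at 0 in the other 9 libraries. gma-MIR-1509a exceeded gma-MIR-1509b by 4.14-fold in soybean and by 8.16-fold in pea. The listed forms of the copies were both 22 nt and had the same base at 21 of 22 positions, differing at position 21 from the 5′ end. gma-MIR-1508c, of the family that acts on PPR genes, had 1320 RPM in soybean and 113 RPM in pea. It was listed at 0 in all 9 libraries outside the legumes.

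gma-MIR-1511 had 2652 RPM in soybean and 641 RPM in pea, against 12.6 RPM in blueberry, 2.20 RPM in tomato and 1.77 RPM in pear. The lower legume value was 50.9-fold above the highest value elsewhere, and the legume mean was 9.58 higher on the log2(RPM + 1) scale (SE 1.28, limma adjusted p = 6.22e-05). Its share of the summed level was 0.497% in soybean (Wilson 0.472–0.524) and 0.484% in pea (0.425–0.552). gma-MIR-4996 had 446 RPM in soybean and 40.4 RPM in pea, and gma-MIR-5671b had 74.1 RPM in soybean and 57.7 RPM in pea. Both were listed at 0 in the other 9 libraries. Summed RPM was 4.03-fold higher in soybean than in pea, and the ratio of soybean to pea in RPM ran over 1.28 (gma-MIR-5671b), 2.73 (gma-MIR-1509a), 4.14 (gma-MIR-1511), 5.39 (gma-MIR-1509b), 11.1 (gma-MIR-4996) and 11.7 (gma-MIR-1508c). The legumes therefore held these 6 members in unequal proportions, with no replicate of either library to set this against.

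The other legume members were low or absent from the legumes. gma-MIR-1512c was listed in pea alone, at 34.6 RPM (12 reads), and gma-MIR-5671a and gma-MIR-5781 in soybean alone, at 11.4 RPM each (6 reads each). As the smallest listed value in pea was 14.4 RPM, a level like that of soybean would not have been listed there. gma-MIR-1508a was listed in blueberry alone, at 2.33 RPM (5 reads), and the 22 nt form listed there is the whole of gma-MIR-1508c with 1 base before it. gma-MIR-1512a-3p was listed in kiwifruit alone, at 10.6 RPM (69 reads), as a 15 nt form with 4 mismatches to its reference when placed without gaps. mdm-MIR-1511, which carries the legume family number and an apple code, was listed in pear alone, at 740 RPM (2515 reads, Poisson interval 712–770 RPM), as a form identical to its reference.

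Of the 12 legume members 6 lay above every library outside the legumes in both legume libraries (50%), where 49 of all 418 miRNAs did (11.7%), and 7 were listed in legumes only (58.3%), where 58 of 418 were (13.9%). The 6 were all those listed in both soybean and pea. limma called the same 6 higher in the legumes, 6 of 12 (50%) beside 45 of 418 (10.8%), and 1 miRNA of 418, no member, lower. Apart from gma-MIR-1509a and gma-MIR-1511, the called members were listed at 0 elsewhere and are among the 418 only through the legume libraries that listed them, so their calls and these counts are a description. The 3 members listed in 1 legume each had an adjusted p of 0.0921 by limma, and gma-MIR-1508a, mdm-MIR-1511 and gma-MIR-1512a-3p one of 0.701. Over the 55 choices of 2 libraries gma-MIR-1509a and gma-MIR-1511 reached the smallest two-sided exact permutation p this design allows, 0.0364. The median difference of mean log2(RPM + 1) between the groups was 4.32 for the 12 members and -0.24 for all 418 miRNAs, and it depends on the pseudocount of 1 where a group was at 0. Both legumes were ground, and in the 3 other ground libraries 5 of the 6 were listed at 0 and gma-MIR-1511 had 2.20 RPM in tomato. Among the 5 ground libraries alone limma called 5 of 12 members, without gma-MIR-5671b, and 32 of 418 miRNAs.

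Set beside other groups of names, 21 of 61 soybean-coded miRNAs of other families (34.4%) also lay above every library outside the legumes, and 15 of 194 miRNAs of conserved families did (7.73%). The 3 conserved miRNAs with the highest level in soybean were mtr-MIR-159a, aly-MIR-166h-3p and mtr-MIR-319d-3p, of families that regulate development. Of 43 miRNAs of other families known to start secondary small RNAs, such as MIR-482 and MIR-2118, which act on resistance genes, 8 did (18.6%). MIR-390 and MIR-393 are in both of these lists. In the second list gma-MIR-482d-3p had 39484 RPM in soybean and 7750 RPM in pea, against 69.5 RPM at most elsewhere, and vun-MIR-2118 had 23680 RPM in soybean and 9735 RPM in pea, so gma-MIR-482d-3p was the higher of them in soybean and vun-MIR-2118 in pea. Both of them and gma-MIR-1507a exceeded gma-MIR-1511 in both legumes. limma called 12 of 194 conserved miRNAs (6.19%) and 8 of these 43 (18.6%) higher in the legumes.

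In citrus the list rested on MIR-3952 and MIR-3954. csi-MIR-3952 had 506 RPM in grapefruit (628 reads) and 3091 RPM in orange (14951 reads), and was listed at 0 in the other 9 libraries. In orange it was the 5th most abundant of 111 miRNAs, with 7.98% of the summed level (Wilson 7.86–8.10), against 0.242% in grapefruit (0.224–0.262). csi-MIR-3954, the citrus starter of secondary small RNAs, had 360 RPM in grapefruit (447 reads) and 112 RPM in orange (544 reads), and was listed at 0 in all 9 libraries outside citrus. The order of the citrus libraries was thus reversed between these members in RPM. In share csi-MIR-3954 was lower in grapefruit, 0.173% (0.157–0.189), than in orange, 0.290% (0.267–0.316), as the summed level was 5.38-fold higher in grapefruit. Names that look like fragments of tRNA or rRNA held 87.6% of the summed level in grapefruit and 4.09% in orange. Without them csi-MIR-3954 was higher in grapefruit, 1.40%, than in orange, 0.303%, and csi-MIR-3952 had 1.96% in grapefruit and 8.32% in orange. csi-MIR-3951 and csi-MIR-3947-5p were listed in orange alone, at 3.51 RPM (17 reads) and 1.24 RPM (6 reads). Both lay under the smallest value listed in grapefruit, 4.03 RPM. csi-MIR-3946 was listed in no citrus library and in pear at 6.48 RPM (22 reads), as a form with 8 mismatches to its reference when placed without gaps.

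Of the 5 citrus members 2 lay above every library outside citrus in both citrus libraries (40%), where 19 of all 418 miRNAs did (4.55%), and 4 were listed in citrus only (80%), where 43 of 418 were (10.3%). limma called the same 2 higher, beside 19 of 418 (4.55%), and it called no miRNA lower. csi-MIR-3952 and csi-MIR-3954 are among the 418 only through the citrus libraries, so their calls and these counts are a description. No miRNA was lower at an unadjusted p under 0.05 either, and 53 of 418 were higher. For csi-MIR-3951, csi-MIR-3947-5p and csi-MIR-3946 the adjusted p by limma was 0.207, 0.246 and 0.717. The median difference of mean log2(RPM + 1) was 1.09 over the 5 members and -0.39 over all 418 miRNAs. The 1.09 is the value of csi-MIR-3951, listed in orange alone, and depends on the pseudocount of 1. Its sign was fixed by the listing, as 4 of the 5 members were listed in citrus only. Without grapefruit 4 of 5 members lay above every other library, by the values of orange alone. Among the 5 squeezed libraries alone limma called 2 of 5 members and 8 of 418 miRNAs. Of the 11 orange-coded miRNAs of other families 9 lay above every library outside citrus (81.8%), as did 5 of 194 conserved miRNAs (2.58%) and 6 of the 43 starters of secondary small RNAs (14.0%). The 3 of these starters with the highest value in either citrus library were csi-MIR-482a-3p, csi-MIR-482b and ath-MIR-390a-5p.

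In tomato all 10 Solanaceae members were listed, and none was listed in another library. sly-MIR-1919a led them with 1327 RPM (6034 reads, Poisson interval 1294–1361 RPM) and was the 6th most abundant of 118 miRNAs, with 4.61% of the summed level (Wilson 4.50–4.72), or 13.9% without the fragment-like names. sly-MIR-1919c-5p had 195 RPM (885 reads). Of the families that act on resistance genes, sly-MIR-6022 had 31.7 RPM (144 reads), sly-MIR-6027-3p 11.7 RPM (53 reads), sly-MIR-6026 3.52 RPM (16 reads) and sly-MIR-6027-5p 1.32 RPM (6 reads). sly-MIR-9471b-3p had 18.9 RPM (86 reads) and its near copy sly-MIR-9471a-3p 5.72 RPM (26 reads). sly-MIR-9479-3p had 5.50 RPM (25 reads) and sly-MIR-9476-3p 2.20 RPM (10 reads).

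As 1 tomato library stood against 10 others, no test was made. All 10 members lay above every other library (100%), beside 60 of 418 miRNAs (14.4%), and all 10 were listed in tomato only, beside 50 of 418 (12.0%). The 10 are among the 418 only through tomato, so the first count follows from the second and both are a description. Among tomato-coded miRNAs of other families 11 of 19 (57.9%) were above every other library, among conserved miRNAs 16 of 194 (8.25%), and among the 43 starters of secondary small RNAs 4 (9.30%). Several members were too low to have been listed elsewhere at the same level. The smallest listed value was above 7 of the 10 members in ginger, above 6 in pea and above 5 in soybean, but above none of them in kiwifruit and orange. With all values under 29.5 RPM set to 0, 3 of the 10 remained above the other libraries, sly-MIR-1919a, sly-MIR-1919c-5p and sly-MIR-6022. The same count over all 418 miRNAs was not made.

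In pear 5 of the 6 Rosaceae members were listed, and 1 of them, mdm-MIR-7122a, was also listed in kiwifruit and blueberry. mdm-MIR-7121e had 694 RPM (2359 reads, 12th of 95 miRNAs), mdm-MIR-7125 57.7 RPM (196 reads), mdm-MIR-7124a, which the table writes with a double hyphen, 11.8 RPM (40 reads) and mdm-MIR-7120b 9.12 RPM (31 reads), and these 4 were listed in no other library. mdm-MIR-7122a, of the family that acts on PPR genes, had 50.6 RPM in pear (0.153% of its summed level), against 1575 RPM in kiwifruit (10270 reads) and 16.3 RPM in blueberry (35 reads). Pear was thus below kiwifruit, at 0.0321 times its RPM, and above blueberry, and the Poisson intervals of 43.3–58.8, 1545–1606 and 11.4–22.7 RPM did not overlap. The listed form was the same 22 nt sequence in all 3 plants and identical to its reference. In kiwifruit it was the 7th of 117 miRNAs and held 2.72% of the summed level. vvi-MIR-3627-5p, whose family acts on calcium pump genes, was listed in blueberry alone at 16.3 RPM (35 reads), with 2 mismatches to its grapevine reference.

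With 1 pear library no test was made here either. Of the 6 members 4 lay above every library outside Rosaceae and the same 4 were listed in pear only (66.7%), beside 32 of 418 (7.66%) and 27 of 418 (6.46%) miRNAs. These 4 are among the 418 only through pear, so the first count follows from the second and both are a description. Among apple-coded miRNAs of other families 10 of 19 (52.6%) lay above every other library, among conserved miRNAs 10 of 194 (5.15%), and among the 43 starters of secondary small RNAs 6 (14.0%), led by mdm-MIR-482a-3p with 2776 RPM. With values under 29.5 RPM set to 0, 2 of the 6 Rosaceae members lay above the others, mdm-MIR-7121e and mdm-MIR-7125, and this was not counted over all 418 miRNAs.

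As a share of the summed level, the legume list held 3.53% in soybean (Wilson 3.46–3.60) and 4.25% in pea (4.06–4.43), against 2.25% in pear, 0.0611% in blueberry, 0.0198% in kiwifruit, 0.00764% in tomato and 0 in the other 5 libraries. Nearly all of the pear share, 2.24%, was mdm-MIR-1511, which has an apple code. The citrus list held 0.415% in grapefruit (0.391–0.441) and 8.28% in orange (8.16–8.41), against 0.0196% in pear and 0 elsewhere. The Solanaceae list held 5.56% in tomato (5.44–5.69) and 0 in the other 10 libraries. The Rosaceae list held 2.49% in pear (2.40–2.58), against 2.72% in kiwifruit (2.67–2.77), 0.0856% in blueberry and 0 elsewhere. Where a list was at 0, the upper Wilson bound, which takes 0 as no reads, ran over 0.00102% (kiwifruit) to 0.0845% (coconut). Reads too few to be listed are left out of these bounds, so the true share may lie above them. Without the fragment-like names the citrus share of grapefruit was 3.36% and the Solanaceae share of tomato 16.8%.

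**Figure D2:**
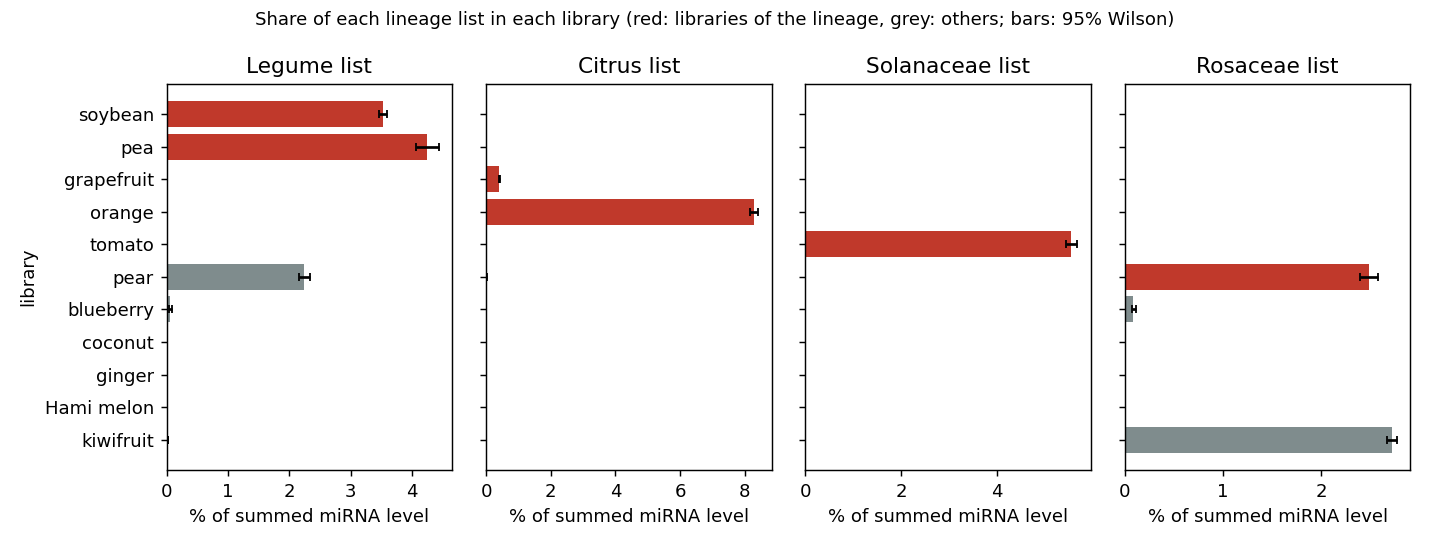
Share of the summed miRNA level held by each of the 4 lists (panels, in percent) in each of the 11 libraries, with libraries of the lineage in red, others in grey and 95% Wilson intervals as error bars. The shares in the lineage run over 0.415% to 8.28%, while pear with 2.25% in the legume list and kiwifruit with 2.72% in the Rosaceae list are the highest of the grey bars.

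The listed sequences were then set against their references. In the lineage 35 of 36 pairs matched their reference without a mismatch (97.2%), against 8 of 13 pairs outside it (61.5%), beside 565 of the 901 pairs of other miRNAs (62.7%). All pairs of soybean and tomato in their lineage had references from the plant sequenced itself, and no pair outside a lineage had. Lineage and the species of the reference can therefore not be told apart in these counts. The only pair with a mismatch in the lineage was csi-MIR-3951 in orange, with 2. Outside the lineage the pairs with mismatches were gma-MIR-1511 in pear with 1, vvi-MIR-3627-5p in blueberry with 2, gma-MIR-1511 in tomato with 3, gma-MIR-1512a-3p in kiwifruit with 4 and csi-MIR-3946 in pear with 8. The placement allowed no gaps, so a base inserted in a form can raise its count above the changes present. The last 3 of these forms each hold such a base, a T in tomato, a C in kiwifruit and a T in pear. Bases beyond the end of the reference, not counted as mismatches here, were present in 11 further pairs of the lineage, so that 24 of 36 lay within their reference without a mismatch, shortened forms included, against 8 of 13 outside. Forms identical to the whole reference numbered 15 of 36 in the lineage and 6 of 13 outside. The read support also differed, with a median of 115 reads in the lineage and 22 outside. No test was made, because pairs share libraries. The 8 pairs outside the lineage without a mismatch were gma-MIR-1509a in blueberry, pear and kiwifruit, gma-MIR-1508a and gma-MIR-1511 in blueberry, mdm-MIR-1511 in pear, and mdm-MIR-7122a in kiwifruit and blueberry. By its apple code mdm-MIR-1511 in pear would count in the lineage.

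By length, of the 49 pairs of members 19 were 22 nt long (38.8%), against 118 of the 901 other pairs (13.1%). Pairs repeat names, as gma-MIR-1509a was listed at 22 nt in 5 libraries and mdm-MIR-7122a in 3, so these are not counts of separate members. The 22 nt pairs were 12 of 36 in the lineage and 7 of 13 outside, and 9 of the 15 legume pairs in legumes. Forms under 18 nt made up 2 of 36 pairs in the lineage, gma-MIR-1511 in soybean and sly-MIR-9476-3p in tomato at 17 nt each, and 3 of 13 outside it.

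**Figure D3:**
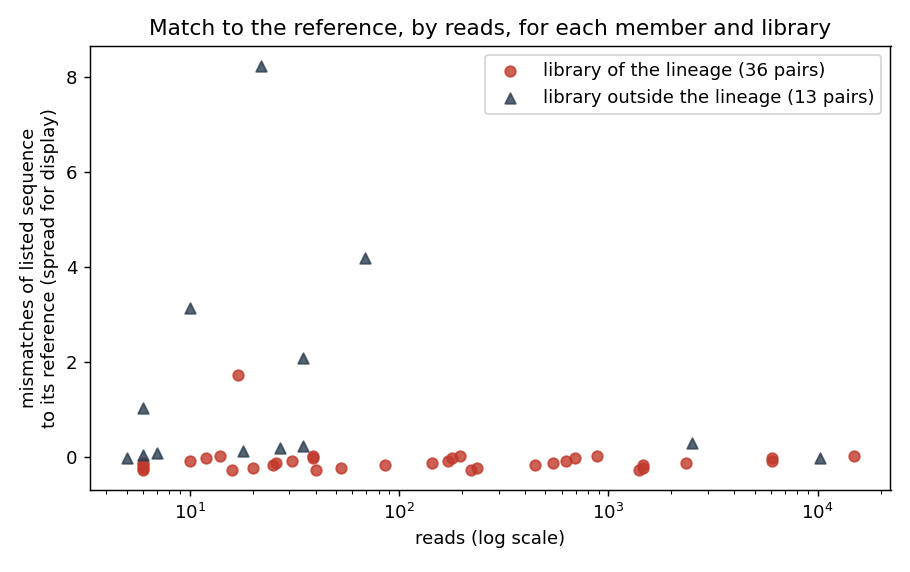
Mismatches of the listed sequence to its reference (vertical axis, points spread slightly for display) against the reads of the pair (horizontal axis, log scale), for the 36 pairs of a member and a library in the lineage (red circles) and the 13 pairs outside it (dark triangles). Of the pairs in the lineage 35 lie at 0 mismatches, and the 5 triangles above 0 have 6 to 69 reads. Forms were placed without gaps, so an inserted base can raise the count.

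Members of different lists shared a run of letters. The run GAAATCACGGT was held by 4 of the 418 reference sequences (0.957%), all of them members, namely gma-MIR-1509a, gma-MIR-1509b, csi-MIR-3954 and mdm-MIR-7122a, and it was searched on the strand given. In every listed form of these names the run took positions 10 to 20. It is set in capitals in the forms of their own lineages.
gma-MIR-1509a, soybean: ttaatcaagGAAATCACGGTcg
gma-MIR-1509b, soybean: ttaatcaagGAAATCACGGTtg
csi-MIR-3954, grapefruit: ttggacagaGAAATCACGGTc
csi-MIR-3954, orange: ttggacagaGAAATCACGGTca
mdm-MIR-7122a, pear: ttatacagaGAAATCACGGTcg
The form of mdm-MIR-7122a had the same base as the orange form of csi-MIR-3954 at 19 of 22 positions, and as gma-MIR-1509a at 18 of 22, with the differences at positions 4, 5, 8 and 9 from the 5′ end. csi-MIR-3954 in orange and gma-MIR-1509a were the same at 16 of 22. The 3 families thus shared positions 10 to 20 and had different seeds. By level the run was present in 7 libraries, as gma-MIR-1509a and gma-MIR-1509b in the legumes, as csi-MIR-3954 in citrus, and as mdm-MIR-7122a with low gma-MIR-1509a in pear, blueberry and kiwifruit. In pear, blueberry and kiwifruit mdm-MIR-7122a had 50.6, 16.3 and 1575 RPM and gma-MIR-1509a 2.06, 8.39 and 0.920 RPM. None of the 4 was listed in coconut, ginger, Hami melon or tomato.

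**Figure D4:**
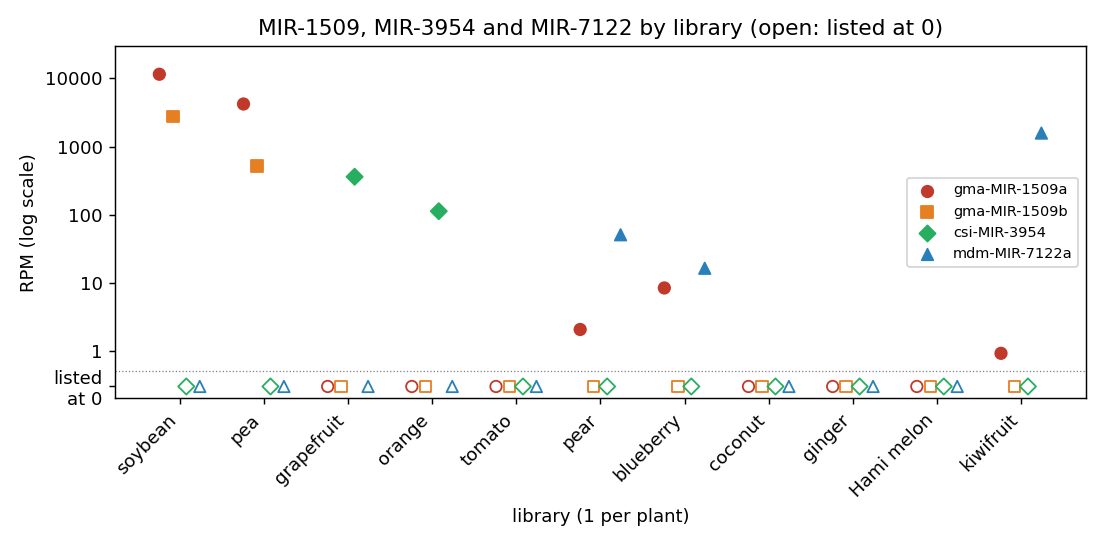
Level in RPM (log scale) of the 4 members that share the run, gma-MIR-1509a, gma-MIR-1509b, csi-MIR-3954 and mdm-MIR-7122a, in each of the 11 libraries, with open symbols for names listed at 0. Soybean and pea reach 11516 and 4212 RPM of gma-MIR-1509a, kiwifruit 1575 RPM of mdm-MIR-7122a, and coconut, ginger, Hami melon and tomato hold open symbols only.

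The sequences of MIR-1511 were shared more widely, and the other names in this paragraph were picked with their values in view. The run GCTCTGATACCA lies in 6 of the 418 reference sequences (1.44%), those of gma-MIR-1511, mdm-MIR-1511, cpa-MIR-8155, bdi-MIR-845, osa-MIR-1863a and bdi-MIR-7782-3p. The listed forms of MIR-1511 and the reference of cpa-MIR-8155 are shown with as much of the run as they hold in capitals.
gma-MIR-1511, soybean: aaccagGCTCTGATACC
gma-MIR-1511, pea: aaccagGCTCTGATACCAtga
gma-MIR-1511, blueberry: accagGCTCTGATACC
gma-MIR-1511, pear: aactagGCTCTGATACC
gma-MIR-1511, tomato: gaaccatgGCTCTGATACCAt
mdm-MIR-1511, pear: acctaGCTCTGATACCAtgaa
cpa-MIR-8155, reference: taacctgGCTCTGATACCA
cpa-MIR-8155, one of the fragment-like names, was listed in 8 libraries, from 6.29 RPM in kiwifruit to 9637 RPM in grapefruit, and at 0 in soybean, pea and Hami melon. It had 264 RPM in tomato, 174 RPM in pear and 10.7 RPM in blueberry, the libraries that listed gma-MIR-1511 outside the legumes. bdi-MIR-845 and bdi-MIR-7782-3p were listed in blueberry alone, at 37.3 and 13.1 RPM, and osa-MIR-1863a in tomato alone, at 2.86 RPM. Whether the short forms of gma-MIR-1511 share a source with these names was not tested.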

How the data were processed

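Each of 11 plants gave 1 small RNA library of its EPDELNs. The authors filtered the reads, searched the plant entries of miRBase 21 with MIRPIPE allowing 2 mismatches, and deposited a level in RPM and the most abundant sequence for each miRNA. The 950 values and sequences above 0 were equal in the merged table and the tables of single libraries, and 0 columns were left unmapped. Reads were recovered from the RPM steps only for intervals and minimums.

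Members were taken by family number. Every member is named, other names only by a shared seed, a shared run of 10 or more letters or as the 3 highest of a comparison list, except where stated. The members, lists and tests were chosen with earlier results of these data known, and the supplementary table with the same values had been seen. Soybean and pea, and grapefruit and orange, were each compared with the other 9 libraries by limma 3.58.1 (R 4.3.3) on log2(RPM + 1) with a variance trend and Benjamini-Hochberg adjustment over 418 miRNAs (threshold 0.05), with no filter, and by a two-sided exact permutation test over the 55 choices of 2 libraries. Sequences were placed on the listed reference without gaps. Shares carry Wilson intervals and RPM values exact Poisson intervals. The limma fit, the recovery of reads and the placement were tested on simulated data. The tools were matplotlib 3.10.9, scipy 1.17.1, pandas 2.3.3 and numpy 2.4.6 under Python 3.11.15. Alternatives were other scales, pseudocounts, minimums, matches and definitions of lineage, libraries of the same juicing only, and leaving out each library. No genome was used here.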

Additional observations from a re-analysis of the deposited data

Results flagged for a closer look

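Among the libraries outside a lineage, 3 shares stood apart from the rest by the gap to the next library relative to the whole range. In groups of spread values chance marks at most about 1 in 20 in this way, as only the gap at the top was examined. That rate does not hold here, since most of these shares were 0 and a lone value above 0 is always marked. Pear held 2.25% of its level in the legume list, against 0.0611% in blueberry as the next of 9 libraries, and mdm-MIR-1511 made up 2.24%. Kiwifruit held 2.72% in the Rosaceae list, all of it mdm-MIR-7122a, against 0.0856% in blueberry as the next of 10. Pear held 0.0196% in the citrus list, all of it the 22 reads of csi-MIR-3946, where the other 8 libraries outside citrus held 0.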

How the results depend on the processing

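Of 134 values recomputed under other settings 122 stayed within the limits set for them and 12 moved. The limit was a set fold of the main value for counts and its Wilson interval for shares. These values have no direction that could change. Many settings could not move their value. For members at 0 elsewhere, a change of scale, a higher fold or leaving out an outside library could not alter the count above every other library. The 122 are therefore no measure of stability. The number of legume members called by limma was 6 under every setting that kept both legumes, except 5 among ground libraries only, beside 32 of 418 miRNAs. Citrus members called by limma numbered 2 under every setting that kept both citrus libraries. Those above every other library numbered 2, and 4 without grapefruit. Leaving out a library of a lineage leaves 1, which limma assumes to vary like the others, so calls of those fits are not given. With values under 29.5 RPM set to 0, 3 Solanaceae and 2 Rosaceae members lay above every other library, with no such count made over all miRNAs. Without names that resemble tRNA or rRNA pieces the list shares were 4.01% in soybean, 3.36% in grapefruit, 8.63% in orange, 16.8% in tomato and 2.77% in pear. Beside the 134, the share of csi-MIR-3954 then turned from lower to higher in grapefruit than in orange. With at most 2 mismatches the tomato share was 5.90%, and with lineage by code the pear share was 4.72%, since mdm-MIR-1511 then counts for pear. Among pairs of at least 10 reads, 5 of 9 outside the lineage matched without a mismatch. Count-based tests on the recovered reads were planned and not run. No paired analysis was possible because each plant has 1 library. Depth limits what is listed, as 5 reads are 0.767 RPM in kiwifruit and 14.4 RPM in pea.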
